A study of Mus musculus with 10 samples.

Results

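The GIMAP genes (GTPases of immunity-associated proteins) encode GTP-binding proteins found mainly in lymphocytes, and this account describes the 8 mouse genes of the family that the deposited tables list under Gimap1, Gimap3, Gimap4, Gimap5, Gimap6, Gimap7, Gimap8 and Gimap9. They were taken by gene name from tables of 53656 genes. All 8 passed the filter on low counts that left 14214 genes for testing. The libraries were 6 from TOX knockout (KO) and 4 from TOX wild-type (WT) SMARTA CD4 T cells, which carry a transgenic T cell receptor for GP61, a peptide of lymphocytic choriomeningitis virus (LCMV). TOX is a nuclear HMG-box protein needed for CD4 lineage development and linked to exhaustion of T cells. Before sorting, naive cells were transferred into B6 mice that had been given cytoxan (cyclophosphamide) and carried B16-GP61 melanoma, a B16 line bearing that peptide, and were recovered 11 days later from the tumour-draining lymph node. KO cells were sorted as Ly5.1+ and Ly5.2-, with low PD1, LAG3 and CD39. WT cells were sorted as Ly5.1+ and Ly5.2+, with high PD1, LAG3 and CD39. Genotype, sort gate and congenic marker therefore cannot be told apart, and every KO against WT difference below carries all of them. The labels number the replicates but name no animals, and the p-values therefore rest on differences among these libraries, some of which may be technical.

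GIMAP proteins bind guanine nucleotides and several of them sit on intracellular membranes, such as those of the endoplasmic reticulum, mitochondria and lysosomes. Loss of certain single members in mice or rats shortens the life of naive T cells. Gimap5 is the best known of these, since its mutation causes the T lymphopenia of the diabetes-prone BB rat. In the mouse the genes form a compact cluster. In these tables it lay on chr6:48647234-48770851 (GRCm38), a stretch of 123.618 kb that holds Gimap8, Gimap9, Gimap4, Gimap6, Gimap7, Gimap1, Gimap5 and Gimap3 in that order. Gimap6 and Gimap3 lie on the minus strand and the other 6 on the plus strand.

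RefSeq promoter windows (GRCm38.p6, 250 bases before to 50 after each start) were found for all 8 genes, with 9 windows because Gimap8 has 2. The windows of Gimap7, Gimap4 and Gimap1 are printed 5′ to 3′ because Gimap7 was the single member that passed the KO against WT test, Gimap4 shares its motif matches without having passed, and Gimap1 differed most between libraries. Capitals mark matches, on either strand, to a RUNX motif (TGTGGT), a TCF and LEF motif (CTTTGA) or a KLF motif (CACCC). RUNX, TCF and LEF, and KLF proteins are transcription factor families active in T cells.
Gimap7 promoter, chr6:48718371-48718670, plus strand: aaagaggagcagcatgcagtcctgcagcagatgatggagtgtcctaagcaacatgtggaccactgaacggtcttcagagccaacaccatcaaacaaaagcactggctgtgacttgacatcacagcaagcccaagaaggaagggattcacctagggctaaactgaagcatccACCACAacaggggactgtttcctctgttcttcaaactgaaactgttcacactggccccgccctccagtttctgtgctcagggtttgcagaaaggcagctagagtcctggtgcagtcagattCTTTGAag
Gimap4 promoter, chr6:48684328-48684627, plus strand: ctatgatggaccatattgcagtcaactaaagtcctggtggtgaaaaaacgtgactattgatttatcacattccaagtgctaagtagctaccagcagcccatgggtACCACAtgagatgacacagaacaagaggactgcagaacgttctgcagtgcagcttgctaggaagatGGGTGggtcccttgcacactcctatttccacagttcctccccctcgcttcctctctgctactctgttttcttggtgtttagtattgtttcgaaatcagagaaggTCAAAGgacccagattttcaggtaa
Gimap1 promoter, chr6:48738797-48739096, plus strand: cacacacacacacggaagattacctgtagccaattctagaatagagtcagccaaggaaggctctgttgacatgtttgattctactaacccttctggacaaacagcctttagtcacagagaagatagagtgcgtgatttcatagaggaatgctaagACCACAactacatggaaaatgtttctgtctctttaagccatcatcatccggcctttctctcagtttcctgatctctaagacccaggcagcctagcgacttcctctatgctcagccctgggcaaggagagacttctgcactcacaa

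The RUNX motif occurred in 3 of the 9 GIMAP windows, those of Gimap7, Gimap4 and Gimap1, and in 16.8% of all 32851 RefSeq promoter windows. It lay 79 bases before the start of Gimap7, 145 before that of Gimap4 and 95 before that of Gimap1, each on the minus strand. The TCF and LEF motif occurred in 2 windows, those of Gimap7 and Gimap4, against 16% of all windows. The KLF motif was in 6 of the 9 windows, in Gimap3, Gimap4, Gimap5, Gimap9 and both of Gimap8, and in 57.5% of all. A FOXO motif (GTAAACA) was in the Gimap3 window alone and in 3.65% of all windows. An ETS motif (CCGGAA) was in 0 of the 9 and in 14.9% of all. No matches overlapped in the 3 windows shown. A match describes these letters only.

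Each library held many reads. Totals were 36028980 to 55784453 counts in KO libraries and 31939816 to 45481478 in WT libraries. Tox, the targeted gene, averaged 31.0 ± 20.8 CPM (counts scaled to a common library size) in KO libraries and 236 ± 88.0 CPM in WT libraries (SD, n = 6 and 4), a log2 difference of -2.93 with an adjusted p of 0.0102. Of the genes for the gated proteins, Pdcd1 (PD1) followed its gate, averaging 431 ± 74.1 CPM in KO libraries against 1092 ± 353 CPM in WT libraries. Lag3 averaged 206 ± 137 CPM in KO and 93.1 ± 152 CPM in WT libraries and Entpd1 (CD39) 6.44 ± 7.76 CPM in KO and 71.8 ± 51.1 CPM in WT libraries, and neither passed the test. The 14 T cell markers on the fixed list summed to 26668 to 38839 CPM in KO and 12671 to 28686 CPM in WT libraries. RNA of other cells was uneven between the groups. The immunoglobulin share of counts was 0.0835% to 0.187% in KO libraries and, in WT libraries, 0.815% in replicate 1, 7.37% in replicate 2, 7.66% in replicate 3 and 16.7% in replicate 4. The summed level of 15 B and plasma cell markers was 85.9 to 364 CPM in KO libraries, against 3328 to 12888 CPM in WT libraries, and 11 of the 14 tested were lower in KO (among them Cd79a, Cd79b, Ms4a1, Jchain and Mzb1). The summed level of 17 myeloid markers was 5.16 to 241 CPM in KO libraries, against 1501 to 7655 CPM in WT libraries, and 4 of the 16 tested were lower in KO (Lyz1, Lyz2, Cd68 and C1qa). Tnfrsf17 and Clec9a were at 0 in all KO libraries and were not tested. In WT libraries Tnfrsf17 was at 0 to 13.9 CPM and Clec9a at 0 to 0.799 CPM. Other markers tested were 5 of NK and CD8 T cells, 3 endothelial and stromal, 1 melanoma and 5 erythroid and platelet. Of these, edgeR called only Klrb1c, higher in KO, where it called 0.429% of all genes higher. DESeq2 also called 1 NK and CD8 marker lower and 1 erythroid or platelet marker higher. Over all genes DESeq2 called 7.03% lower and 4.31% higher. Limma-voom also called 1 NK and CD8 marker lower, where it called 4.78% of all genes lower. With quality weights it called 3 NK and CD8 markers and 1 erythroid or platelet marker lower. Over all genes that fit called 19.5% lower.

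One GIMAP gene, Gimap7, was lower in KO libraries, and the other 7 did not pass the test at an adjusted p of 0.05. The test was edgeR's quasi-likelihood test on counts, with Benjamini-Hochberg adjustment over all 14214 genes. Of these genes, 2.7% were called lower and 0.429% higher in KO (3.13% in either direction), so that 1 of 8 members called lower is a count too small to set the family apart from that background. No member was called higher, and 0 of the 3 members with an unadjusted p under 0.05 were higher. Over all 14214 genes, 2554 had an unadjusted p under 0.05. DESeq2 and limma-voom also called 0 members higher, and limma-voom with quality weights called 1, Gimap1, where it called 18% of all genes higher. Tools and scalings that called more members also called more genes. DESeq2 called 2 members (Gimap7 and Gimap8) and 11.3% of all genes in either direction. Quality weights called 4 (Gimap1, Gimap6, Gimap7 and Gimap8) and 37.5% of all genes, and scaling to 8 receptor complex genes called 4 (Gimap4, Gimap6, Gimap7 and Gimap8) and 13.2%. The median log2 fold change, KO minus WT, was -0.23 over the 8 members and -0.12 over all genes tested. Fewer cells of a type and less RNA per cell cannot be told apart in these bulk libraries.

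Gimap7 encodes a GTPase whose human counterpart is known to form dimers that raise its catalytic activity. Its level was 35.7, 72.5, 87.4, 64.9, 76.6 and 57.0 CPM in KO replicates 1 to 6, against 215, 213, 146 and 200 CPM in WT replicates 1 to 4. The highest KO library thus lay below the lowest WT library. Means were 65.7 ± 18.0 CPM in KO and 194 ± 32.5 CPM in WT libraries (SD, n = 6 and 4). The log2 fold change was -1.56 with an SE of 0.28 and an adjusted p of 0.0150 by edgeR's quasi-likelihood test, a level 2.95-fold lower in KO. Gimap7 was the single member whose groups did not overlap, as 6.31% of all genes tested did in the same direction. Its deposited counts were at least 1259 in every library, so counting error was small beside the spread between libraries.

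Gimap7 was lower in KO in all 26 other fits made, but 2 WT libraries decided whether it passed. Leaving out each library in turn gave log2 fold changes of -1.67 to -1.35, and the adjusted p passed 0.05 without WT replicate 2 (0.0551) and without WT replicate 4 (0.0681). The library names carry numbers whose meaning the labels do not give. KO replicates 1 to 3 and WT replicate 1 carry numbers 1 to 3, and the remaining 6 libraries carry numbers 4 to 8. Within numbers 4 to 8 Gimap7 averaged 66.2 CPM in 3 KO and 186 CPM in 3 WT libraries, with a log2 fold change of -1.42 and an adjusted p of 0.0262, in a fit that called 7.18% of genes lower in KO. Within numbers 1 to 3 it averaged 65.2 CPM in 3 KO libraries against 215 CPM in the lone WT library, with a log2 fold change of -1.69 and an adjusted p of 0.142 in a fit that takes the lone WT library to vary as the KO libraries do.

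**Figure D1:**
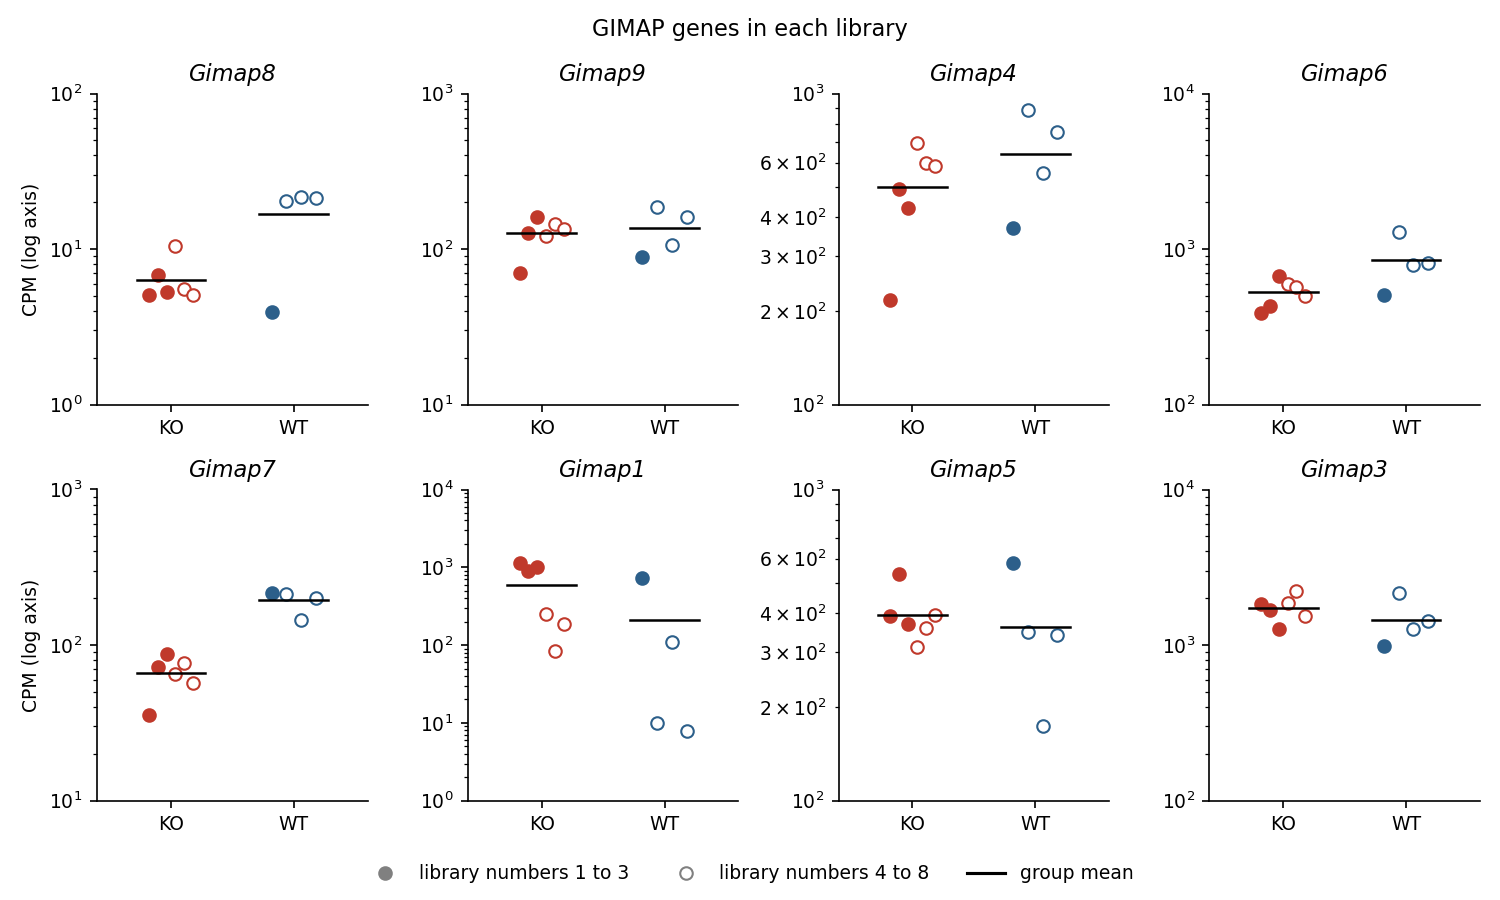
CPM of each GIMAP gene in every library, with KO on the left and WT on the right of each panel; filled points are library numbers 1 to 3, open points numbers 4 to 8, and bars are group means. Gimap7 separates the genotypes, with KO libraries at 35.7 to 87.4 and WT libraries at 146 to 215 CPM, whereas Gimap1 separates filled from open points within each genotype.

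Gimap8 and Gimap6 had lower means in KO libraries without passing the test. Gimap8, a family member with more than a single GTPase domain, had the lowest mean of the members in each group. In WT replicates 2 and 4 Gimap1 was lower, at 10.0 and 7.94 CPM. Gimap8 measured 5.08, 6.80, 5.32, 10.5, 5.52 and 5.07 CPM in KO replicates 1 to 6. In WT replicates 1 to 4 it measured 3.96, 20.5, 21.5 and 21.2 CPM. WT replicate 1 was the lowest of all 10 libraries, and the other 3 WT libraries were above every KO library. The log2 fold change was -1.40 with an SE of 0.51 and an adjusted p of 0.188 by edgeR. Gimap6, known for binding a GABARAP-family protein and for a role in autophagy, measured 390, 432, 675, 594, 569 and 499 CPM in KO replicates 1 to 6, against 508, 1287, 789 and 816 CPM in WT replicates 1 to 4. WT replicate 1 again lay among the KO libraries while the other 3 WT libraries lay above all of them. Its log2 fold change was -0.69 with an SE of 0.27 and an adjusted p of 0.221 by edgeR. Without WT replicate 1 both passed edgeR's test, Gimap8 at a log2 fold change of -1.72 (adjusted p = 0.0164) and Gimap6 at -0.87 (adjusted p = 0.0486), in a fit where 7.9% of genes were called lower in KO. Without WT replicate 2 the log2 fold change of Gimap6 was -0.36, with an adjusted p of 0.666.

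The levels of these genes can be set beside B cell RNA. WT replicate 1 had the lowest B cell marker sum of the WT libraries, 3328 CPM, against 12845, 9228 and 12888 CPM in WT replicates 2 to 4 and no more than 364 CPM in KO libraries. Gimap8 and Gimap6 were the lowest of the WT libraries there, and Gimap8 was also below every KO library. In WT replicates 2 to 4, Gimap8 was at 20.5, 21.5 and 21.2 CPM. Gimap7, at 215 CPM in WT replicate 1, was the highest of all 10 libraries. The part of B cell RNA in the levels of these 3 genes was not tested.

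**Figure D2:**
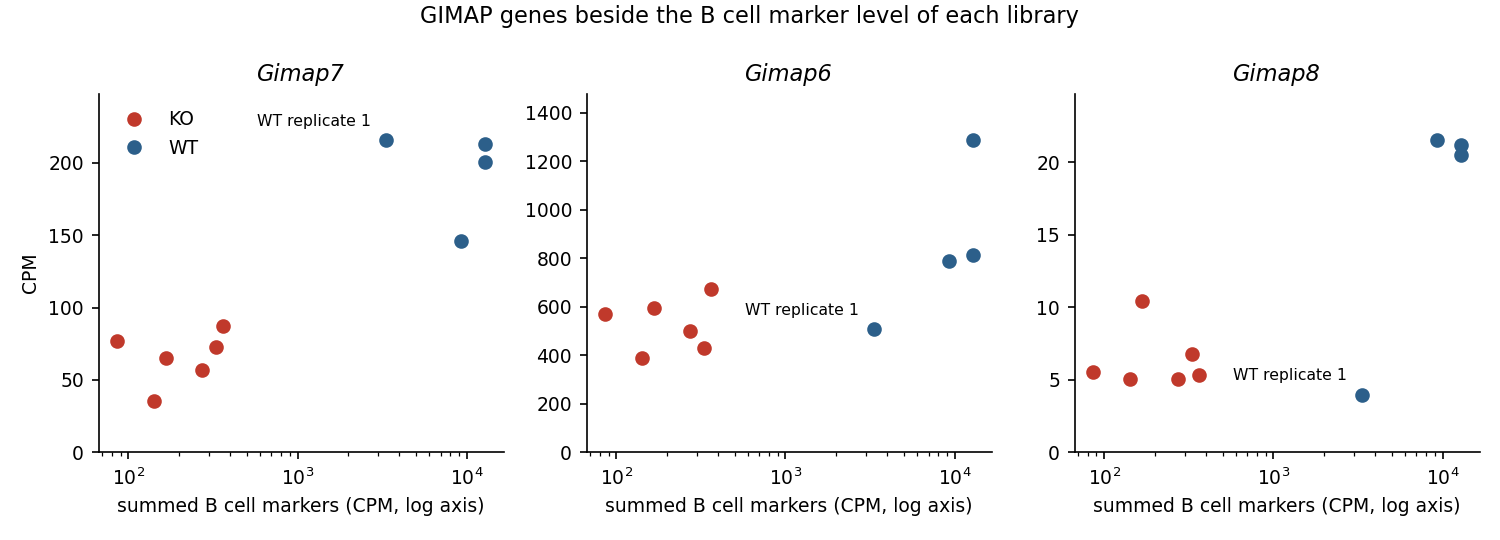
CPM of Gimap7, Gimap6 and Gimap8 against the summed CPM of B and plasma cell markers on a log axis, 1 point per library with KO in red and WT in blue. WT replicate 1, at 3328 CPM of B cell markers, holds the highest Gimap7 level (215 CPM) and the lowest Gimap8 level (3.96 CPM).

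Gimap1 varied more between libraries of 1 genotype than any other member. The gene is needed for mature T and B cells to survive in mice. Its level was 1129, 896, 995, 252, 83.2 and 184 CPM in KO replicates 1 to 6, against 725, 10.0, 108 and 7.94 CPM in WT replicates 1 to 4. The highest library exceeded the lowest 13.6-fold within KO and 91.2-fold within WT, while the same ratio was at most 3.20 in KO and 5.43 in WT for the other 7 genes. KO averaged 590 ± 466 CPM and WT 213 ± 344 CPM (SD, n = 6 and 4). The log2 fold change of 1.47 had an SE of 1.23 and an adjusted p of 0.567 by edgeR, and did not pass. Its size depended on the fit. Without WT replicate 1 the log2 fold change was 3.81, with an adjusted p of 0.0696. It was 2.90 with limma-voom (adjusted p = 0.234) and 4.64 with limma-voom and quality weights (adjusted p = 0.00689).

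The 4 high libraries were those with library numbers 1 to 3. Gimap1 stood at 896 to 1129 CPM in KO and 725 CPM in the lone WT library of that set, and at 83.2 to 252 CPM in 3 KO and 7.94 to 108 CPM in 3 WT libraries of numbers 4 to 8. A contrast between the sets with genotype as a term was added after these values had been seen, so it describes them. It gave a log2 difference of 3.12 for Gimap1, numbers 1 to 3 minus numbers 4 to 8, with an SE of 0.72 and an adjusted p of 0.0183. The contrast called 14% of all genes in either direction and 9.02% higher in numbers 1 to 3. Leaving out 1 library at a time gave 2.54 to 3.78, and 2 of these fits did not call it, those without WT replicate 1 (adjusted p = 0.136) and without KO replicate 5 (adjusted p = 0.0504). The other 7 members were not called, with Gimap4 nearest at a log2 difference of -0.81 and an adjusted p of 0.0742. Whether the numbers mark a preparation, a mouse or a day is not given in the labels.

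Reads for Gimap1 also had competing annotations. Gimap1os, an antisense gene on the minus strand, shares 1107 of the 3073 exon bases of Gimap1 (36.0%), and a read-through gene on the plus strand, RP24-315D19.2, shares 198 (6.44%). The counting set no strand option, so reads from Gimap1 and Gimap1os in shared bases cannot be told apart by strand. Gimap1os itself counted 3.69 to 14.9 CPM in KO and 13.0 to 25.8 CPM in WT libraries. The read-through gene shares 81 bases with Gimap7 (3.48%) and 153 with Gimap5 (3.69%). It counted 1.59 to 5.73 CPM in KO and 4.62 to 11.2 CPM in WT libraries.

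Gimap3, Gimap4, Gimap5 and Gimap9 differed less between the groups than between libraries within a group. Gimap3 and Gimap5 are close relatives that in mice both act in T cell survival. Gimap3 was the most abundant member and ranged over 1277, 1764 and 2216 CPM (lowest, median and highest) in KO libraries and measured 992, 2146, 1271 and 1428 CPM in WT replicates 1 to 4. Its log2 fold change was 0.25, with an SE of 0.25. Gimap5 ranged over 311, 381 and 536 CPM in KO libraries and measured 580, 348, 174 and 342 CPM in WT replicates 1 to 4, with a log2 fold change of 0.13 and an SE of 0.31. The lowest and the highest Gimap5 levels were both in WT libraries. Reads that match both genes were not counted, and 190 of the 50-base windows of their transcripts are identical, 7.52% of those of Gimap3 and 4.53% of those of Gimap5.

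Gimap4, which in mice speeds the death of T cells once apoptosis has begun, ranged over 217, 539 and 694 CPM (lowest, median and highest) in KO libraries and measured 370, 884, 557 and 750 CPM in WT replicates 1 to 4. The log2 fold change was -0.35 with an SE of 0.34, and ran from -0.54 without WT replicate 1 to -0.0890 without WT replicate 2, with -0.13 without KO replicate 1 and -0.20 without WT replicate 4. Gimap9 ranged over 69.7, 131 and 160 CPM in KO libraries and measured 88.9, 187, 106 and 161 CPM in WT replicates 1 to 4, with a log2 fold change of -0.11 and an SE of 0.31. The groups overlapped for all 4 of these genes, and their adjusted p-values ran from 0.634 for Gimap4 to 0.882 for Gimap9 by edgeR. KO replicate 1 was the lowest of all 10 libraries for both Gimap4 and Gimap9.

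**Figure D3:**
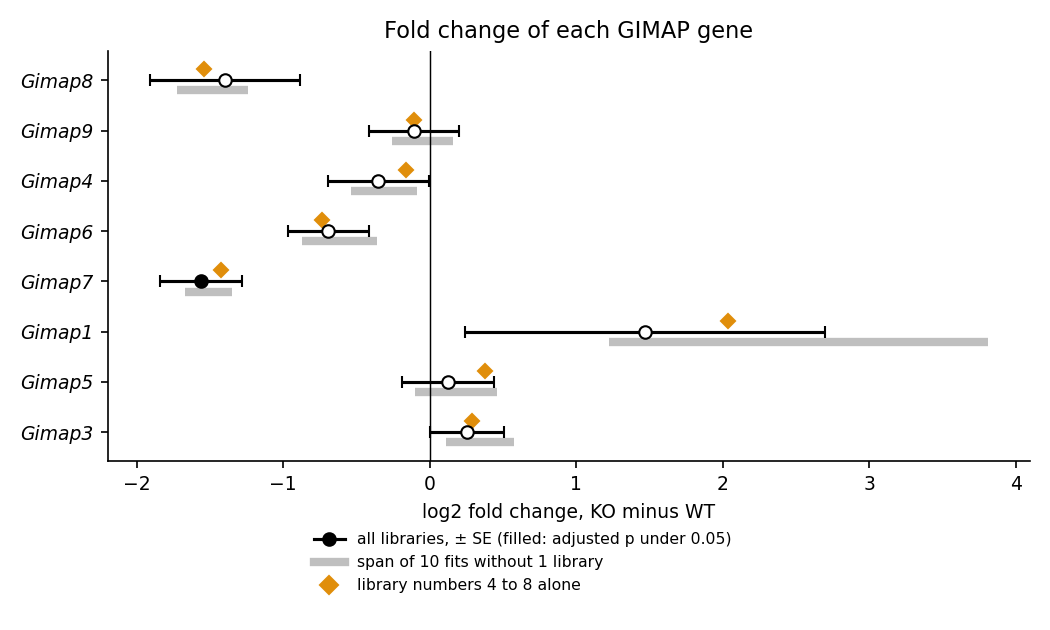
Log2 fold change (KO minus WT) of each GIMAP gene over all libraries with its SE, the span of 10 fits that each left out 1 library, and the value in library numbers 4 to 8 alone. Gimap7, at -1.56, is the filled point (adjusted p = 0.0150), and Gimap1 has the widest SE, 1.23.

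The summed level of the family had overlapping ranges in the groups. Summed over the 8 genes, the level was 3951 ± 290 CPM in KO libraries and 3869 ± 848 CPM in WT libraries (SD, n = 6 and 4), with ranges of 3403 to 4252 CPM in KO and 3173 to 5095 CPM in WT libraries. Gimap1 made up 27.7%, 21.1%, 24.9%, 6.42%, 2.05% and 5.41% of that sum in KO replicates 1 to 6, against 20.8%, 0.197%, 3.41% and 0.213% in WT replicates 1 to 4. Without Gimap1 the sum was 3361 ± 396 CPM in KO libraries and 3656 ± 1033 CPM in WT libraries. Gimap7 contributed 0.876% to 2.19% of the sum in KO libraries and 4.18% to 6.19% in WT libraries.

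**Figure D4:**
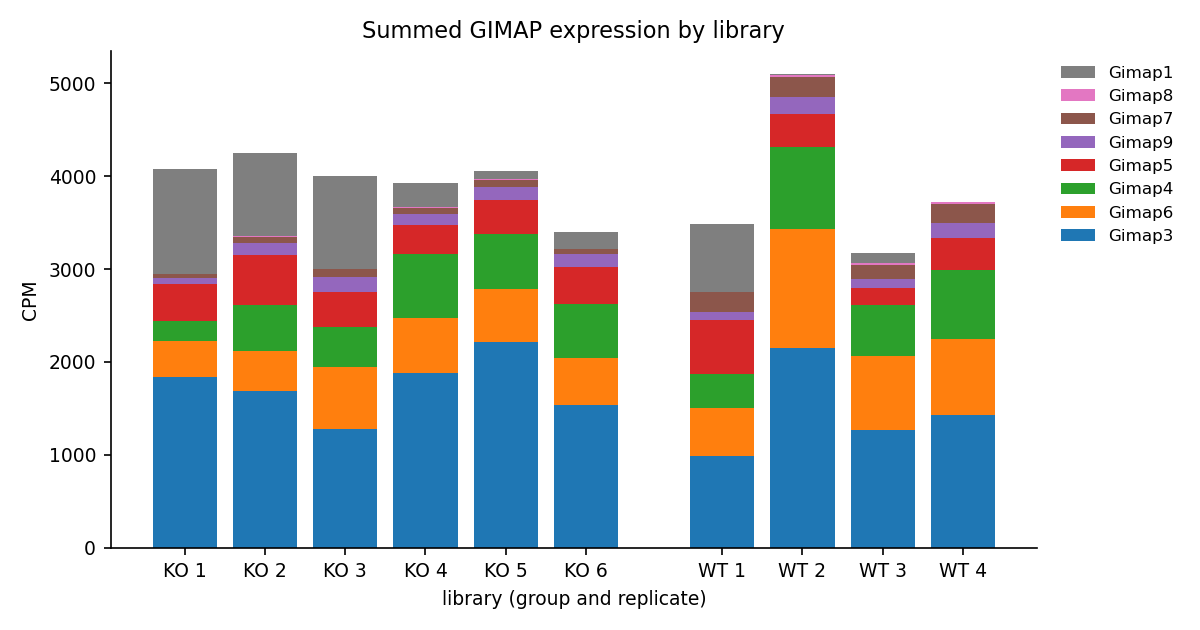
Stacked CPM of the 8 GIMAP genes in each library, KO replicates 1 to 6 first and WT replicates 1 to 4 after them. Totals run from 3403 to 4252 CPM in KO and from 3173 to 5095 CPM in WT libraries, and Gimap3 is the largest block in every library.

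Per exon length, in RPKM (CPM per kilobase of exon), the order of levels differed between the groups in the place of Gimap7 and Gimap1. In KO libraries the means were 675 RPKM for Gimap3, 273 for Gimap4, 192 for Gimap1, 151 for Gimap6, 95.0 for Gimap5, 76.8 for Gimap9, 28.3 for Gimap7 and 1.72 for Gimap8. Of these neighbours, Gimap3 and Gimap4, Gimap9 and Gimap7, and Gimap7 and Gimap8 had ranges that did not overlap, and the other neighbouring pairs overlapped. In WT libraries the means were 566 RPKM for Gimap3, 348 for Gimap4, 243 for Gimap6, 87.0 for Gimap5, 83.3 for Gimap7, 82.7 for Gimap9, 69.2 for Gimap1 and 4.54 for Gimap8. Between neighbours in WT, the ranges of Gimap6 and Gimap5 did not overlap, and all others did. In WT libraries Gimap7 and Gimap9 were thus level, and in KO libraries Gimap7 was below Gimap9 in each of the 6.

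Ratios between members within a library do not depend on how libraries are scaled. All 28 pairs were compared between the genotypes by a two-sided exact permutation test on log2 ratios, and 0 passed after adjustment over the 28 pairs, with 10 at an unadjusted p under 0.05. The smallest p that 6 against 4 libraries can give is 0.00952, and 4 pairs reached it, all with Gimap7. No pair can pass the adjustment on its own at that p, so the count of 0 depends on how many pairs are low together. The log2 ratio of Gimap7 to Gimap9 averaged -0.95 ± 0.15 in KO and 0.56 ± 0.49 in WT libraries (SD, n = 6 and 4), a difference of -1.51. The difference was -1.23 for the ratio to Gimap4, -1.83 for that to Gimap5 and -1.89 for that to Gimap3, and in each of these 4 pairs the groups did not overlap (adjusted p = 0.0667, exact permutation test). Without WT replicate 1, 14 of the 28 pairs passed. With 6 against 3 libraries the smallest p possible is 0.0238, at which pairs pass only when many reach it together.

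Genes around the cluster were read from the same fit. Within 500 kb of the cluster 51 other genes are annotated and 17 were tested, with a median log2 fold change of 0.18. Only Tmem176b and Tmem176a passed, and both were lower in KO. These overlapping genes, transcribed from opposite strands, encode membrane proteins abundant in dendritic cells and other myeloid cells. Tmem176b averaged 5.22 ± 4.77 CPM in KO and 135 ± 93.0 CPM in WT libraries, with a log2 fold change of -4.69 and an adjusted p of 0.0124 by edgeR. Tmem176a averaged 4.17 ± 2.78 CPM in KO and 91.4 ± 46.9 CPM in WT libraries, with a log2 fold change of -4.45 and an adjusted p of 0.00536. The summed myeloid markers were likewise lower in every KO library, and their part in these 2 values was not tested. On the other side of the cluster, RP24-124B23.4 came nearest to passing, with 13.1 ± 6.54 CPM in KO libraries against 2.49 ± 1.12 CPM in WT libraries (log2 fold change 2.39, adjusted p = 0.0533).

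**Figure D5:**
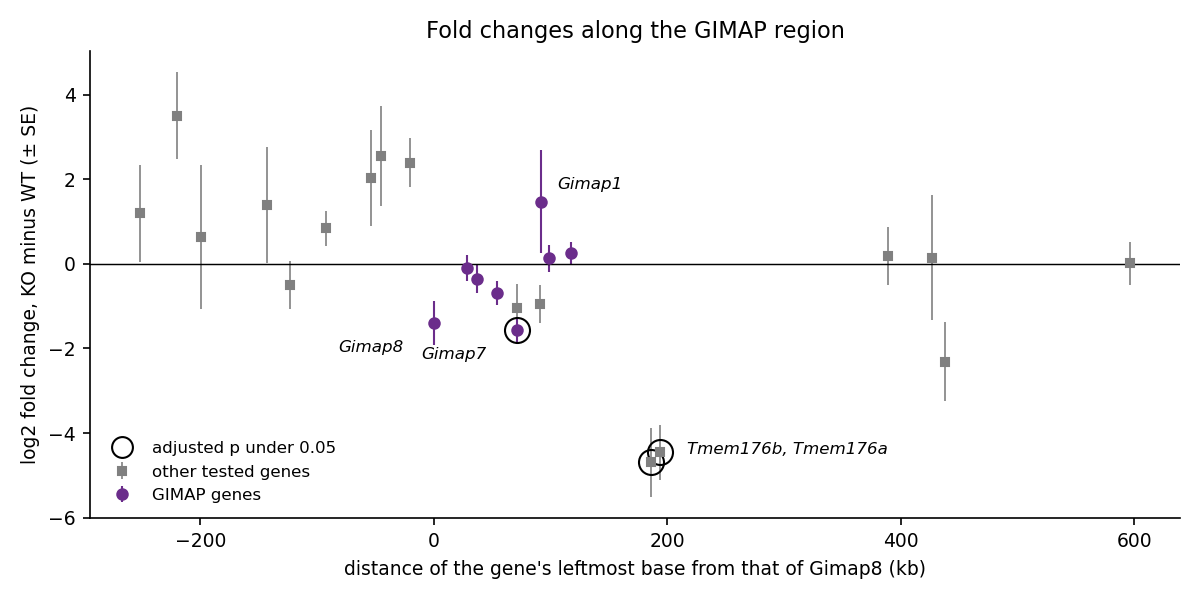
Log2 fold change (KO minus WT, with SE) of the tested genes around the GIMAP cluster against the distance in kb from the leftmost base of Gimap8, with GIMAP genes in purple, other genes in grey and genes with an adjusted p under 0.05 ringed. Gimap7 (-1.56) is ringed within the cluster, and Tmem176b (-4.69) and Tmem176a (-4.45) are ringed beside it.

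Genes tied to GIMAP function were examined as a list of 20 survival and autophagy genes. By edgeR 0 of the 20 passed. At an unadjusted p under 0.05 were 3 of the 20, 2 of them higher in KO, against 2554 of all 14214 genes. DESeq2 called 1, limma-voom 0 and limma-voom with quality weights 4, all higher in KO, where they called 4.31%, 1.44% and 18% of all genes higher, so these counts are near the background. The median log2 fold change of the list was 0.22, and 15 of the 20 were positive, against a median of -0.12 and 45.7% positive over all genes. Nfatc1, a calcium-regulated transcription factor, had the highest mean over all libraries. It averaged 1190 ± 999 CPM in KO and 321 ± 183 CPM in WT libraries (adjusted p = 0.177 by edgeR). It measured 2839, 1949, 1017, 464, 422 and 448 CPM in KO replicates 1 to 6. In WT replicates 1 to 4 it measured 546, 178, 393 and 166 CPM. Map1lc3b, which encodes the autophagosome protein LC3B, averaged 548 ± 70.1 CPM in KO and 507 ± 103 CPM in WT libraries (adjusted p = 0.814). Gabarap, of the same protein family, averaged 313 ± 78.4 CPM in KO and 376 ± 155 CPM in WT libraries (adjusted p = 0.683). Klf2, a transcription factor of quiescent T cells, was, like Gimap1, high in library numbers 1 to 3. It measured 2050, 1833, 1000, 19.4, 18.7 and 24.7 CPM in KO replicates 1 to 6, against 1633, 12.8, 14.7 and 12.9 CPM in WT replicates 1 to 4.

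In a list of 16 genes of naive and resting T cells, 0 passed by edgeR. The median log2 fold change of the list was 0.79, against -0.12 over all genes tested. Of the 16, 5 were at an unadjusted p under 0.05 by edgeR, all higher in KO, against 2554 of all 14214 genes. DESeq2 called 3 of the 16 and limma-voom 1, all higher in KO, against 4.31% and 1.44% of all genes. With quality weights limma-voom called 2 higher and 3 lower, near its shares of 18% higher and 19.5% lower over all genes. Tcf7, a transcription factor of naive and memory T cells, averaged 979 ± 410 CPM in KO and 511 ± 151 CPM in WT libraries (adjusted p = 0.206 by edgeR). It measured 1381, 1342, 1333, 626, 631 and 561 CPM in KO replicates 1 to 6. In WT replicates 1 to 4 it measured 451, 716, 517 and 360 CPM. Ccr7, the receptor that guides naive T cells into lymph nodes, averaged 884 ± 251 CPM in KO and 480 ± 220 CPM in WT libraries (adjusted p = 0.269). Btg1, a factor of T cell quiescence, averaged 1475 ± 1347 CPM in KO and 385 ± 468 CPM in WT libraries (adjusted p = 0.353). Btg1 measured 2628 to 2820 CPM in KO libraries and 1085 CPM in the lone WT library of numbers 1 to 3, and 174 to 297 CPM in KO libraries and 114 to 173 CPM in WT libraries of numbers 4 to 8.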

How the data were processed

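RNA was measured in 10 libraries, 6 KO and 4 WT. Per the labels' protocols, SMART-seq v4 amplified the RNA of sorted cells, which was sequenced as 50 bp read pairs. The deposited values are raw counts. The authors assigned read pairs to genes of GENCODE M17 (GRCm38.p6) with featureCounts 1.6.2, per the file headers, leaving strand unset and multiply mapping reads out. The submitters' processing notes also list STAR and FastQC.

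From the counts, TMM factors, filterByExpr and edgeR's quasi-likelihood test were applied to all genes with genotype as the only term (edgeR 4.0.16, limma 3.58.1, R 4.3.3), with Benjamini-Hochberg adjustment at 0.05. Log2 fold changes are KO minus WT. Each SE was taken as log2 fold change divided by the root of F. CPM uses TMM-scaled totals and RPKM divides it by exon length. Ratios used log2 of counts plus 0.5. Alternatives were other scalings and filters, DESeq2 1.42.0, limma-voom, robust fits, blocks by replicate or library number, each library set, and fits without each library. Chi-square tests left no pair of libraries within sampling noise.

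The members and lists were chosen with earlier results of these data known. Named were the 8 members, genes most like the mean of the members (at least 8 CPM), tested neighbours, Tox, Pdcd1, Lag3 and Entpd1. Per list, genes that passed or up to 4 with the highest mean CPM were also named. Not every gene that the rule names is reported here. Gimap1os, the read-through gene and RP24-124B23.4 were singled out after their values were seen.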

Additional observations from a re-analysis of the deposited data

Results flagged for a closer look

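Of 18 sets of values checked (each gene and the family sum in either genotype), 3 held a library far from the others of its group, by a rule that chance meets in about 1 of 20 sets. Gimap8 was at 10.5 CPM in KO replicate 4, while the other 5 KO libraries lay between 5.07 and 6.80 CPM. Gimap8 was at 3.96 CPM in WT replicate 1, while the other 3 WT libraries lay between 20.5 and 21.5 CPM. Gimap1 was at 725 CPM in WT replicate 1, while the other 3 WT libraries lay between 7.94 and 108 CPM. WT replicate 1 is also the WT library with the lowest B cell marker sum, 3328 CPM, and the single WT library with a library number of 1 to 3. The part of either in these values was not tested.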

How the results depend on the processing

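Gimap7 was lower in KO in all 16 alternative settings and passed in 13. Its call was lost with a replicate block (-1.63, adjusted p = 0.196), a library number block (-1.25, adjusted p = 1) and library numbers 1 to 3 alone (-1.69, adjusted p = 0.142), where WT is 1 library, assumed to vary as KO does. The number of members called, 1, became 4 when libraries were scaled to 8 receptor complex genes, 2 with DESeq2, 4 with limma-voom and quality weights, and 0 with a replicate block, a library number block or numbers 1 to 3 alone. Scaling to receptor genes moved the median of all genes to -0.92, against -0.12, and that of the members to -1.12. The members' median was 0.11 with the library number block and 0.27 in numbers 1 to 3 alone. Genes called, 445 in all, numbered 1879 with receptor scaling, 269 without immunoglobulin genes, 1612 with DESeq2, 884 with limma-voom, 5330 with quality weights, 1154 in numbers 4 to 8 alone and 0 with either block, where 2474 (replicate) and 452 (library number) had an unadjusted p under 0.05. The sign of uncalled members turned under receptor scaling (Gimap3 -0.56, Gimap5 -0.47), upper quartile factors (Gimap5 -0.0171), the library number block (Gimap1 -0.0361, Gimap4 0.26, Gimap9 0.48), a term for the library set (Gimap9 0.00860) and numbers 1 to 3 alone (Gimap4 0.0728, Gimap5 -0.39, Gimap6 0.0128, Gimap8 0.57, Gimap9 0.46). Gimap1 was 3.92 with the replicate block (adjusted p = 0.203). The cause was not tested. Without 1 library, 153 to 1644 genes, 0 to 3 members and 0 to 14 ratios were called, the members' median was -0.40 to 0.03, Gimap4 -0.54 to -0.0890, Gimap6 -0.87 to -0.36, Gimap9 -0.26 to 0.16, Gimap5 -0.10 to 0.46 and the Gimap1 set contrast 2.54 to 3.78. The count of 3 members is without WT replicate 1 and that of 0 without WT replicate 2 or 4. Ratios passed in 0 pairs with an added count of 5, and were not tested in numbers 4 to 8 alone, where the smallest p possible is 0.1. The correlation of deviations between same-numbered replicates was 0.289, -0.249, -0.22 and 0.295, so the numbers were not taken to pair the libraries. Between KO and WT libraries of the same library set the correlation was 0.131 to 0.317. Between KO and WT libraries of different sets it was -0.403 to -0.0919.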

Other observations

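Pearson r was taken over the 10 libraries between the log2 CPM of each gene and the mean log2 CPM of the 8 members. It covered 7496 protein-coding genes that averaged 8 CPM or more. The genes with the highest r were Hivep2 (r = 0.80), Runx3 (0.76), Anp32a (0.76), Pafah1b1 (0.74) and Cd101 (0.73). With deviations from each genotype mean they were Stambpl1 (r = 0.88), Hivep2 (0.79), Anp32a (0.78), Avl9 (0.78) and Cd101 (0.77). None of these 7 genes passed the KO against WT test. Hivep2 encodes a zinc finger transcription factor, and averaged 28.7 ± 11.8 CPM in KO and 32.0 ± 6.18 CPM in WT libraries (SD, n = 6 and 4). Runx3, a RUNX-family transcription factor, averaged 15.9 ± 12.2 CPM in KO and 19.6 ± 18.6 CPM in WT libraries. These values share libraries, depth and library sets, so they are given as a description only.

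The result depended on Gimap1, which varied against most other members. In deviations from genotype means its r was -0.78 with Gimap4, -0.74 with Gimap3, -0.71 with Gimap9, -0.68 with Gimap6 and -0.66 with Gimap8. It was -0.17 with Gimap7 and 0.31 with Gimap5. The mean of the 8 members thus mixes opposed patterns. With the mean of the other 7 members, a choice made after the data were seen, the genes were Gmfb, Sp110 and Tmem126b (r = 0.96 each), Cnbp (0.95) and Sdcbp (0.95), and no gene was shared with the 5 above. Sp110, a nuclear body protein induced by interferon, averaged 75.1 ± 20.8 CPM in KO and 128 ± 53.9 CPM in WT libraries, with an adjusted p of 0.267 by edgeR.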
